A study of Mus musculus with 6 samples.

Results

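The 10 genes described here are SoxB transcription factor genes and other genes that mark neural progenitor cells: Sox1, Sox2, Sox3, Sox21, Hes5, Hes3, Nes, Fabp7, Rfx4 and Prom1. They were chosen by symbol, and every one was present on the arrays, with 11 of the 34967 probes for transcripts. All 10 were among the 14315 named genes that could be tested. Prom1 had 2 probes and each other gene had 1. Gene expression was measured on 6 one-colour CodeLink bioarrays, 3 of wild-type and 3 of Splotch null mouse embryos, all of the strain labelled LMBc. By the tissue label and the dissection protocol, all came from the part of the embryo behind the forelimb. The source label instead names the anterior neural tube. The stage was embryonic day 9.5, before the caudal neural tube has closed. The Splotch mutation lies in Pax3, whose product is a transcription factor of dorsal neural tube, somite and neural crest cells, and the labels name no allele. They also leave unsaid how many embryos went onto each array, so p-values measure only the spread between these samples, which may be partly technical.

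Cells of the early neural tube are dividing progenitors. The SoxB1 factors Sox1, Sox2 and Sox3 keep these cells in the progenitor state, and Sox21, of the related SoxB2 group, is known from chick to counteract them and promote neuronal differentiation. Notch signals between neighbouring cells act through the DNA-binding protein RBPJ to switch on Hes genes, whose products repress proneural genes. In the caudal embryo at this stage Sox2 is also expressed in axial progenitors that give rise to both spinal cord and mesoderm.

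Of 10 caudal Hox genes with a named probe, 8 were above background on all 6 arrays. Of 12 genes of the anterior neural tube, which one label named as the source, 8 were above it on all 6 arrays too, so these counts do not set the caudal origin apart. The anterior list included Six3, at 10.74 to 11.24, and Otx2 and Emx1, which were above background on none (these 3 were named after their values were seen). Of the 10 members, 9 were above background on all 6 arrays, and Rfx4 was above it on 5. The median background-subtracted intensity of an array lay between 84.3 and 121.1, which was 3.87 to 5.72 times the negative controls. The 2 brightest arrays were wild type 1 and Splotch null 3. Precision is limited by there being 6 arrays. Levels are log2 of the raw intensity plus 50 after quantile normalization, so a difference of 1 is a change of 2-fold, and differences of dim genes are understated. In whole tissue, fewer cells of a type and less RNA per cell cannot be told apart.

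No genotype difference of the 10 genes was larger than the spread between arrays, and for all 10 the values of the genotypes overlapped. The spread itself was large for most of them, and it lay within the genotypes. Sox2, Sox3 and Sox21 were lowest on Splotch null 2 and highest on Splotch null 3, 2 arrays of the same genotype that differed by 3.97-fold, 3.33-fold and 4.92-fold. The SoxB genes, Hes5 and Rfx4 varied together over the 6 arrays. Nes followed Sox3 over a far narrower range, Fabp7 and Prom1 followed some of these genes in part, and Hes3 followed them least.

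**Figure D1:**
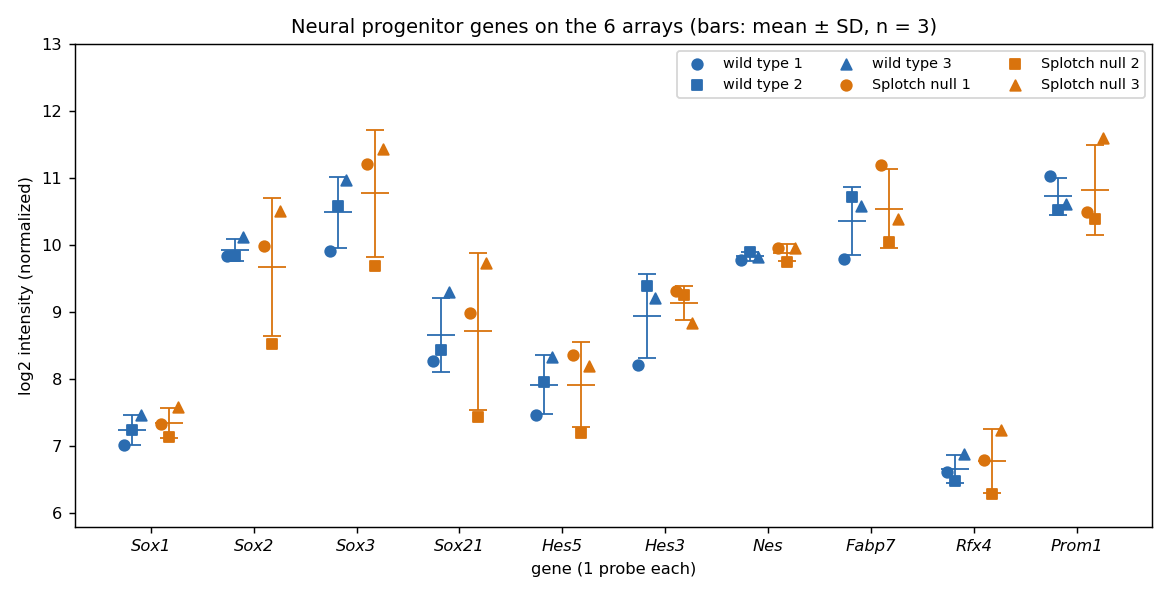
The plot shows the log2 intensity of the 10 genes (y axis, normalized) on each of the 3 wild-type (blue) and 3 Splotch null (orange) arrays, with bars for the mean ± SD of each genotype. Genotypes overlap for all 10 genes, and Splotch null 2 (orange square) lies lowest for 7 of them.

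Among the SoxB1 genes, Sox2, which marks neural progenitors throughout the neural tube, had log2 intensities of 9.83, 9.83 and 10.12 on wild type 1, 2 and 3 and of 9.98, 8.52 and 10.51 on Splotch null 1, 2 and 3. The wild-type arrays lay close together. Splotch null 1 lay within their range, Splotch null 2 below it and Splotch null 3 above it. The wild-type mean was 9.93 ± 0.17 (SD, n = 3) and the Splotch null mean 9.67 ± 1.03 (SD, n = 3). The log2 difference of Splotch null minus wild type was -0.26 (SE 0.46, 95% confidence interval -1.34 to 0.83) and did not pass the limma test (adjusted p = 1, as for every member). The exact two-sided permutation p was 0.9, where 3 against 3 arrays cannot give less than 0.1. The sign of the Sox2 difference rested on Splotch null 2: without that array it was 0.32, and without Splotch null 3 it was -0.68.

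Sox3, the X-linked SoxB1 gene, had log2 intensities of 9.91, 10.59 and 10.96 in wild type and of 11.21, 9.69 and 11.43 in Splotch null. Splotch null 2 and wild type 1 were the 2 lowest arrays. The difference between genotypes was 0.29 (SE 0.48, 95% confidence interval -0.84 to 1.41) and an exact permutation p of 0.6. Without Splotch null 2 it was 0.82, which reached an unadjusted limma p of 0.0336 but not the adjusted threshold. Without Splotch null 3 the Sox3 difference was -0.037 and without wild type 1 it was -0.0016.

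Sox1, the SoxB1 gene that comes on as cells commit to neural fate, had log2 intensities of 7.02, 7.25 and 7.47 in wild type and of 7.33, 7.14 and 7.58 in Splotch null. Its arrays lay in an order close to that of Sox3, over a narrower range of 0.56. The genotype difference was 0.10 (SE 0.17, 95% confidence interval -0.30 to 0.51) and an exact permutation p of 0.6. Of genes of like brightness, within 0.5 on the log2 scale, 30.7% had at least the spread of Sox1 over the 6 arrays, so its spread was not unusual.

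Sox21 had log2 intensities of 8.27, 8.43 and 9.30 in wild type and of 8.98, 7.43 and 9.73 in Splotch null. The lowest and the highest of the 6 values both came from null embryos. Between genotype means Sox21 differed by 0.050 (SE 0.57, 95% confidence interval -1.28 to 1.38) and an exact permutation p of 1. It was 0.69 without Splotch null 2 and -0.45 without Splotch null 3. Its SD over the 6 arrays was 0.82, and 0.903% of genes of like brightness had an SD at least as large. The Sox21 probe carried an accession in the scanner report that differed from the one in the platform annotation, and both sources gave the symbol Sox21.

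Among the Hes genes, Hes5, a target of Notch signalling in neural progenitors, had log2 intensities of 7.46, 7.96 and 8.34 in wild type and of 8.36, 7.19 and 8.20 in Splotch null. The same 2 arrays as for Sox3, Splotch null 2 and wild type 1, were lowest. Its means differed by -0.0011 (SE 0.35, 95% confidence interval -0.82 to 0.81) and an exact permutation p of 1. Without Splotch null 2 the Hes5 difference was 0.36. Hes3, a Hes gene of the early neuroepithelium and caudal embryo, had log2 intensities of 8.22, 9.39 and 9.21 in wild type and of 9.31, 9.25 and 8.84 in Splotch null. Here wild type 1 stood below the other 5 arrays, and Splotch null 2 was not low. The Hes3 difference was 0.20 (SE 0.31, 95% confidence interval -0.53 to 0.92) and an exact permutation p of 0.8, and it was -0.17 without wild type 1.

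The promoter windows of Hes5, Sox2, Sox21 and Fabp7 are shown as examples. Hes5, Sox2 and Sox21 varied together over the arrays, as described below, and Fabp7 followed Sox2 and Sox21 less closely. Each window holds 250 bases before and 50 bases after the annotated start, 5′ to 3′ along the gene, from RefSeq (GRCm38.p6), which held a window for 8 of the 10 genes. Capitals mark matches, on either strand, to TGGGAA (the core of the RBPJ motif), to ACAAAG or ACAATG (SOX motifs) and to CACNAG (the N-box bound by HES proteins). The windows lie at chr4:154960673-154960972 for Hes5, chr3:34649745-34650044 for Sox2 and chr10:57784673-57784972 for Fabp7, all on the plus strand, and at chr14:118236981-118237280 on the minus strand for Sox21.
Hes5: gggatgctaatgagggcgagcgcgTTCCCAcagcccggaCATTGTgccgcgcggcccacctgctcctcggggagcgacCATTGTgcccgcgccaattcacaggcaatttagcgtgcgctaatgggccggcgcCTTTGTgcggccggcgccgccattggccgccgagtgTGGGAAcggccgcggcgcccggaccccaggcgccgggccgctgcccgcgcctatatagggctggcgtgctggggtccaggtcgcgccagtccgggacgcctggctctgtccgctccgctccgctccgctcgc
Sox2: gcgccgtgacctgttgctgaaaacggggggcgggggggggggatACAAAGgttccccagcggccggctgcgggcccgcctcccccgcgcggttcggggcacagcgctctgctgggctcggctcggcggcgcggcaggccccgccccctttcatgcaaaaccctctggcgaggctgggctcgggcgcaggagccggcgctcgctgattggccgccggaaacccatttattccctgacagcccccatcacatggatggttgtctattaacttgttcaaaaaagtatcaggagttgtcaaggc
Sox21: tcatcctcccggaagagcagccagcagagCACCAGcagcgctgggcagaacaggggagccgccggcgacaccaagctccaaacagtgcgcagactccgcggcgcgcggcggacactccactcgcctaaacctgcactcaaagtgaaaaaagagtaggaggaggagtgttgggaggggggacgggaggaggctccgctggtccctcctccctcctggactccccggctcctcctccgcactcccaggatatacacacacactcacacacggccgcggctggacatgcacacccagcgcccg
Fabp7: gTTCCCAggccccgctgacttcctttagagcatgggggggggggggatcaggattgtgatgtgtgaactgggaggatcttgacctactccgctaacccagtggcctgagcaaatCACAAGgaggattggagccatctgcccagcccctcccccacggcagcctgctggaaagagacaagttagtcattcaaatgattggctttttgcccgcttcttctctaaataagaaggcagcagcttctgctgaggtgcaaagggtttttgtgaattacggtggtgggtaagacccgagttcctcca
The Hes5 window held 2 matches to TGGGAA, at positions -226 and -82 from the start, 2 to ACAATG, at -211 and -172, and 1 to ACAAAG, at -118. The Sox2 window held 1 match, to ACAAAG at position -206, and the Sox21 window held 1, to CACNAG at -221. The Fabp7 window held 1 match to TGGGAA, at -249, and 1 to CACNAG, at -136. The windows of Sox1, Nes, Prom1 and Rfx4 are not shown, and Sox3 and Hes3 had no window. The Nes window held no match to any of these motifs, and that of Sox1 held TGGGAA at 42 only. Those of Prom1 held TGGGAA at -116 and CACNAG at -238, -26 and -223. Those of Rfx4 held ACAATG at -22, ACAAAG at 4 and CACNAG at -116. Of all 32851 windows of this length, 25.6% held TGGGAA, 18.7% ACAAAG, 12.6% ACAATG and 42.5% CACNAG on either strand, and none of the matches shown overlapped another. Such matches describe the letters only.

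The remaining genes encode structural and other proteins of progenitors. Fabp7, a fatty acid binding protein of radial glia and early neuroepithelium, had log2 intensities of 9.79, 10.72 and 10.59 in wild type and of 11.20, 10.05 and 10.39 in Splotch null. Its lowest array was wild type 1 and its highest was Splotch null 1. Fabp7 differed between genotypes by 0.18 (SE 0.35, 95% confidence interval -0.64 to 1.0) and an exact permutation p of 0.8. The Fabp7 difference was -0.15 without Splotch null 1 and -0.11 without wild type 1.

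Nes, the intermediate filament protein nestin of dividing neural progenitors and also of early muscle and vessels, varied least. Its log2 intensities were 9.77, 9.90 and 9.83 in wild type and 9.96, 9.75 and 9.96 in Splotch null. All 6 values lay within 0.21, and 93.8% of genes of like brightness had an SD at least as large as that of Nes. The Nes difference was 0.055 (SE 0.12, 95% confidence interval -0.23 to 0.34) and an exact permutation p of 0.6. That interval corresponds to a ratio of Splotch null to wild type between 0.853 and 1.26.

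Rfx4, a winged-helix transcription factor of the neural tube needed for brain development, was dim. Its log2 intensities were 6.62, 6.48 and 6.89 in wild type and 6.80, 6.29 and 7.24 in Splotch null, and it was not above background on Splotch null 2. Its order over the arrays was close to that of Sox21. The Rfx4 difference was 0.12 (SE 0.25, 95% confidence interval -0.47 to 0.70) and an exact permutation p of 0.8.

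Prom1, the membrane protein prominin 1 of apical protrusions of neuroepithelium and of other epithelia, was measured by 2 probes. The brighter one read 11.04, 10.53 and 10.62 in wild type and 10.50, 10.38 and 11.59 in Splotch null on the log2 scale. Splotch null 3 and wild type 1, the 2 brightest arrays, were highest, a pattern that no other member showed. The other Prom1 probe read 8.51, 7.92 and 8.14 in wild type and 8.19, 8.14 and 9.19 in Splotch null, with the same 2 arrays highest. Differences between genotypes were 0.097 (SE 0.33) for the brighter Prom1 probe, with an exact permutation p of 1, and 0.32 for the other, with an exact permutation p of 0.5.

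**Figure D2:**
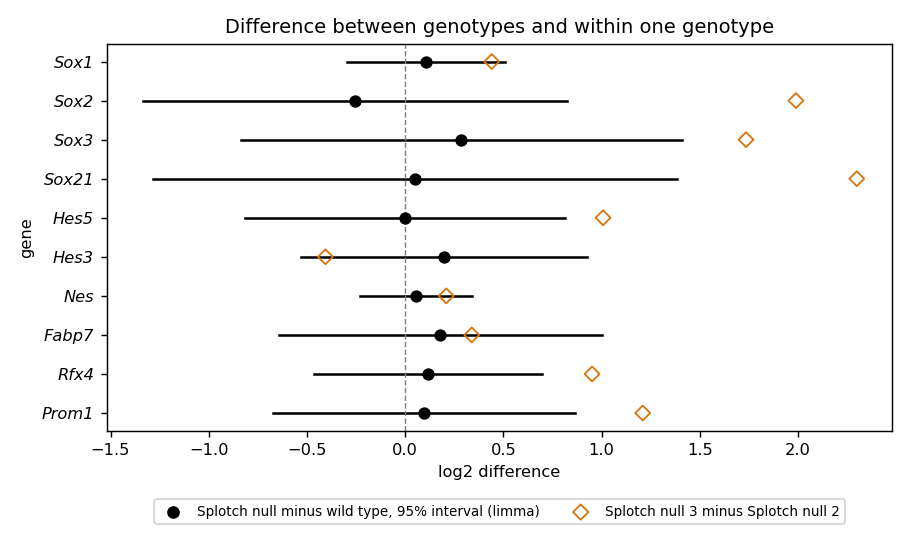
Black points give the log2 difference of Splotch null minus wild type for each gene, with its 95% confidence interval from limma, and open diamonds give the difference between 2 arrays of one genotype, Splotch null 3 minus Splotch null 2. All 10 intervals include 0, and for Sox2, Sox3 and Sox21 the diamonds lie at 1.99, 1.74 and 2.30.

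As a set, 8 of the 10 genes had a mean above wild type in Splotch null and 2, Sox2 and Hes5, a mean below it. The median difference was 0.10, beside 0.017 over all 14315 named genes tested, of which 55% were above 0. No member passed an adjusted p of 0.05 in limma, and 0 of 14315 genes did, or 0%. At an unadjusted limma p under 0.05 there were 0 members, beside 1.43% of all genes. Genotypes that did not overlap were seen for 0 members, beside 5.11% of all genes measured on every array (3.22% higher and 1.89% lower in Splotch null). For each of the 10 the range within at least one genotype was larger than the difference between genotypes. The count of 8 depended on single arrays. It was 10 of 10 without Splotch null 2, with a median of 0.34, and 3 of 10 without Splotch null 3, with a median of -0.076. It was 3 of 10 without wild type 1 as well, with a median of -0.058, and 0 of 10, with a median of -0.13, without wild type 1 and Splotch null 3 together.

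How far the genes moved together was read from their correlation over the 6 arrays, which share amplification, overall brightness and dissection. Over the 36 pairs of the 9 genes above background on every array the median Pearson r was 0.68, where the median over all pairs of the 12561 genes above background on every array was 0.022. An r above 0.8 was found for 11 of the 36 pairs, or 30.6%, and for 8.68% of all pairs. The members' correlation was not one between genotypes, since the median was 0.69 when each value was taken as its deviation from the genotype mean. It lay between 0.62 and 0.71 with each array left out in turn.

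**Figure D3:**
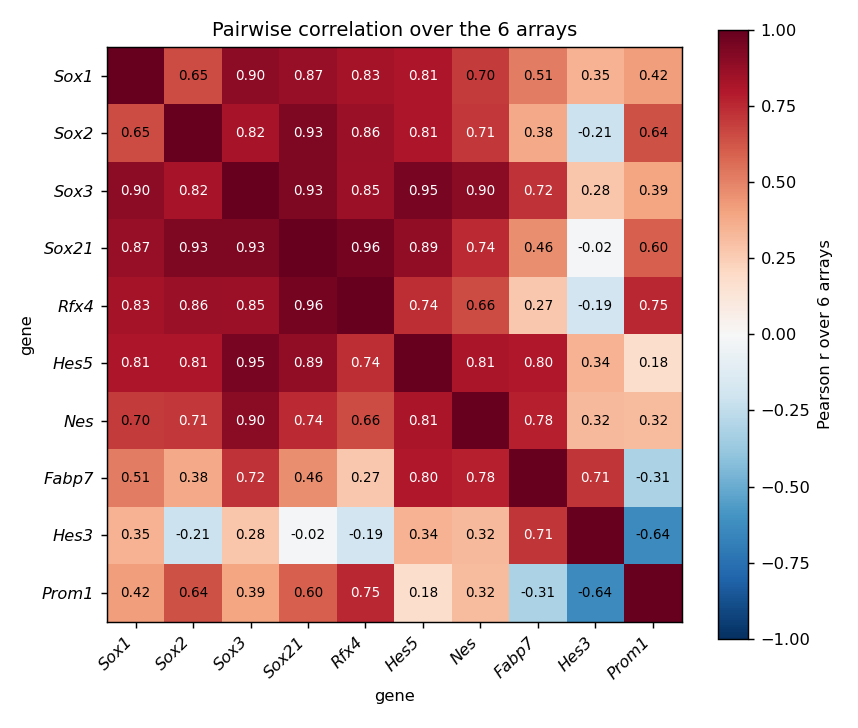
Each cell of the grid gives the Pearson r of 2 genes over the 6 arrays, on a colour scale from -1 (blue) to 1 (red). The block of Sox1, Sox2, Sox3, Sox21, Rfx4 and Hes5 holds values from 0.65 to 0.96, and Hes3 and Prom1 hold the values below 0.

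The closest pairs lay among the SoxB genes, Hes5 and Rfx4. Sox2 and Sox21 correlated with r = 0.93 (exact permutation p = 0.00139) and with a rho of 1 (exact permutation p = 0.00278), so that both genes put the 6 arrays in the same order. Without the 2 arrays farthest from the Sox2 median, Splotch null 2 and Splotch null 3, r was 0.98. For Sox21 and Rfx4 r was 0.96 (exact permutation p = 0.00694) and rho was 0.94 (exact permutation p = 0.0167), with r = 0.90 without Splotch null 2 and Splotch null 3. For Sox3 and Sox21 r was 0.93 (exact permutation p = 0.00556) and rho was 0.94 (exact permutation p = 0.0167), with r = 0.87 without Splotch null 2 and wild type 1.

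For Sox3 and Hes5 r was 0.95 (exact permutation p = 0.00972) and rho was 0.83 (exact permutation p = 0.0583). Without Splotch null 2 and wild type 1, which are lowest for both genes, r was 0.63. For Hes5 and Nes r was 0.81 (exact permutation p = 0.05; rho 0.83, exact permutation p = 0.0583) over all arrays and -0.013 without the same 2. With each single array left out, r of Hes5 with Nes lay between 0.68 and 0.99. Leaving out arrays with extreme values narrows the range and leaves few arrays, so such r values cannot show what a relation rests on. Nes was closest to Sox3, with r = 0.90 (exact permutation p = 0.0222; rho 0.89, exact permutation p = 0.0333), and with r = 0.56 without the same 2 arrays. Its r with the mean centred profile of the 9 members, of which it is one, was 0.88. Over all 45 pairs of the 10 genes, 13 had an unadjusted exact permutation p under 0.05 for r. The share of all gene pairs with such a p was not computed, so this count has no background to be read against. At r above 0.8 the share among pairs of all genes was 8.68%. After Benjamini-Hochberg adjustment 0 of the 45 had an exact permutation p under 0.05, the lowest adjusted value being 0.0625. For rho the lowest adjusted exact permutation p was 0.107.

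**Figure D4:**
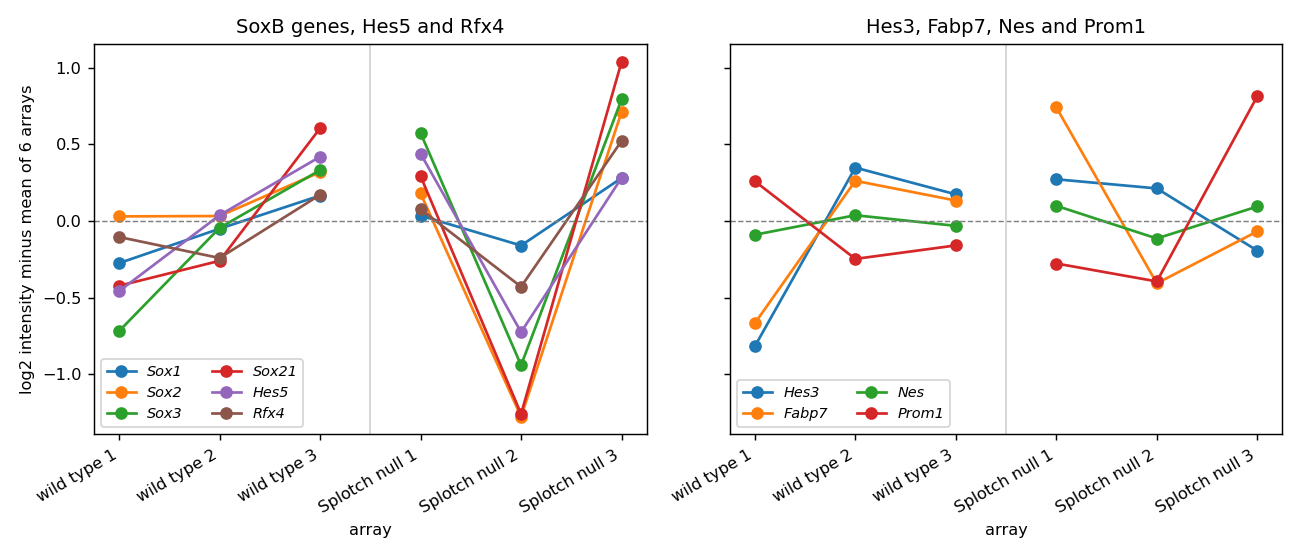
Each line joins the values of 1 gene, as log2 intensity minus the gene's mean over the 6 arrays (y axis), across the 3 wild-type and 3 Splotch null arrays (x axis), which have no order within a genotype. In the left panel Sox1, Sox2, Sox3, Sox21, Hes5 and Rfx4 all lie below their means on Splotch null 2 and above them on Splotch null 3. In the right panel Hes3 and Fabp7 are lowest on wild type 1, Nes stays within 0.21, and Prom1 is highest on Splotch null 3 and next highest on wild type 1.

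Fabp7, Prom1 and Hes3 followed the SoxB genes, Hes5 and Rfx4 unevenly. Fabp7, for which r was 0.80 with Hes5 (exact permutation p = 0.0625; rho 0.77, exact permutation p = 0.103) and 0.72 with Sox3 (exact permutation p = 0.11; rho 0.54, exact permutation p = 0.297), had 0.38 with Sox2 (exact permutation p = 0.472; rho 0.43, exact permutation p = 0.419). Without Splotch null 2 and wild type 1 its values with Hes5 and Sox3 were 0.30 and -0.10. With Nes, Fabp7 had r = 0.78 (exact permutation p = 0.0694; rho 0.77, exact permutation p = 0.103), and 0.61 without Splotch null 1 and Splotch null 2. Prom1 had r = 0.75 with Rfx4 (exact permutation p = 0.0833; rho 0.71, exact permutation p = 0.136) and 0.64 with Sox2 (exact permutation p = 0.183; rho 0.60, exact permutation p = 0.242). Without Splotch null 2 and Splotch null 3 these were -0.19 and -0.40. With each single array left out, r of Prom1 lay between 0.28 and 0.84 with Rfx4 and between 0.44 and 0.72 with Sox2. With Sox21, Sox1, Sox3 and Hes5, Prom1 had lower r values of 0.60, 0.42, 0.39 and 0.18 (exact permutation p = 0.217, 0.396, 0.457 and 0.769). Without Splotch null 3, r of Prom1 was 0.14 with Sox21, -0.46 with Sox1 and -0.22 with Sox3. Hes3 correlated with Fabp7 at r = 0.71 (exact permutation p = 0.121; rho 0.77, exact permutation p = 0.103) and with Prom1 at r = -0.64 (exact permutation p = 0.186; rho -0.71, exact permutation p = 0.136). Without wild type 1 and Splotch null 3 these values were 0.43 and -0.074. With Sox2, Sox21 and Rfx4, Hes3 had r values of -0.21, -0.016 and -0.19, none of which passed an exact permutation test (p = 0.608, 0.965 and 0.688; rho -0.14, -0.14 and -0.43, exact permutation p = 0.803, 0.803 and 0.419). With Sox1, Hes5 and Sox3 the r values of Hes3 were 0.35, 0.34 and 0.28 (exact permutation p = 0.53, 0.52 and 0.66), and rho was 0.029, 0.20 and -0.029. The 2 Prom1 probes correlated with each other at 0.95, and at 0.79 to 0.97 with each array left out.

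The variation of most of the 10 genes was wide beside that of other genes, with Sox1 and Nes as exceptions. Rfx4, not above background on every array, was not compared. The SD over the 6 arrays was 0.67 for Sox2, 0.70 for Sox3 and 0.82 for Sox21, and the median was 0.47 over the 10 genes and 0.20 over all genes above background on every array. An SD at least as large was found for 3.08% of genes of like brightness for Sox2, for 2.11% for Sox3 and for 4.15% for Hes5. For Fabp7, Prom1 and Hes3 these shares were 6.55%, 8.96% and 9.62%. Splotch null 2 was the lowest array for 7 of the 10 genes, beside 17.7% of all genes, and Splotch null 3 was the highest for 6, beside 25.4%. Both held for 5 of the 10, namely Sox2, Sox3, Sox21, Rfx4 and Prom1, and for 9.33% of all genes. Prom1 is counted by its brighter probe. Its other probe was lowest on wild type 2, at 7.92, with 8.14 on Splotch null 2. Rfx4 was not above background on Splotch null 2. Between Splotch null 3 and Splotch null 2 the median difference was 0.98 over the 10 genes and -0.040 over all genes.

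Genes with a course most like that of the members were sought among the 12552 other genes above background on every array, by their Pearson r over the 6 arrays with the mean centred profile of the 9 members. Of these, 0.613% had an r above 0.9. The highest values, between 0.96 and 0.98, belonged to Phyhipl, the catenin family gene Arvcf, the GTPase-activating protein Arhgap33, the phosphatase Ppm1l, Tmem132c, Spon1, Tcerg1l, Nkx6-1, Elavl4 and Olfr571. Nkx6-1, a homeobox gene of ventral progenitors and motor neurons, had log2 intensities of 8.63, 8.99 and 10.04 in wild type and of 10.20, 7.64 and 9.99 in Splotch null. Its range was the widest of the 10, and its lowest and highest values both came from Splotch null arrays. Spon1, the extracellular protein F-spondin of the floor plate, had 9.06 on Splotch null 2 and between 9.54 and 10.04 elsewhere. Elavl4, an RNA-binding protein of neurons, had 6.91 on Splotch null 2 and 7.99 on Splotch null 3. The most opposite courses, with r between -0.99 and -0.98, belonged to the phospholipid-binding annexin Anxa2, Wbp4, Ccdc80, the ligand Bmp2 and the exchange factor Rapgef3. Anxa2 had log2 intensities of 10.73, 10.45 and 10.22 in wild type and of 10.29, 10.98 and 10.17 in Splotch null. These r values were the extremes of a search and are descriptive.

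Other genes of neural progenitors were taken from a list of 37, of which 33 were tested. Of these, 15 were higher and 18 lower in Splotch null, the median difference was -0.04, and 0 passed an adjusted or an unadjusted p of 0.05 in limma. Zic2, a zinc finger gene of the dorsal neural tube, and Vim, the intermediate filament vimentin, had higher values in all 3 null arrays than in all 3 wild-type arrays. Zic2 had 9.99, 10.88 and 10.90 in wild type and 11.27, 10.91 and 10.92 in Splotch null, a difference of 0.44 (SE 0.26), and Vim differed by 0.25 (SE 0.13). The gaps between the genotypes were narrow. For Zic2 the highest wild-type value was 10.905 and the lowest null value 10.914, with wild type 1 far below the other arrays. For Vim these values were 12.74 and 12.79. The growth factor Ptn differed by -0.23 (SE 0.13) and the receptor phosphatase Ptprz1 by -0.41 (SE 0.25). None of these 4 passed (limma adjusted p = 1). Genotypes did not overlap, higher in Splotch null, for 2 of the 33, beside 3.22% of all genes.

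Of 25 genes of Notch signalling, 23 were tested, and 11 were higher and 12 lower in Splotch null with a median of -0.0051 and 0 past the threshold. The ligand Jag2 differed by -0.27 (SE 0.18), the Fringe glycosyltransferase genes Lfng and Rfng by -0.22 (SE 0.23) and -0.15 (SE 0.14), and the receptor Notch3 by 0.18 (SE 0.18), all with a limma adjusted p of 1. Lfng was above background on 5 arrays and Notch3 on 4. The mean level of this list was lowest on Splotch null 2, at 8.86, and highest on Splotch null 3, at 9.11. Over the 6 arrays this was a range of 0.25, against one of 0.98 for the 10 members. Pax3 itself had a mean difference of 0.17 (SE 0.21).

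Markers of other tissues also varied between the arrays on which the members were low or high. Over 10 genes of visceral endoderm and yolk sac, the mean log2 level was 11.65 on Splotch null 2, against 7.94 and 7.11 on the other 2 null arrays and 7.76 to 8.40 in wild type. Of the 15 with a named probe, 7 passed the background on every array and Alb, named after its values were seen, on none. Afp, alpha-fetoprotein, had 13.19 on Splotch null 2 and at most 9.52 elsewhere. The gut endoderm list was highest on Splotch null 2 too, at 9.29, with 8.53 to 8.95 on the other null arrays and 8.52 to 9.04 in wild type. The lateral plate and limb list stood at 9.56 on Splotch null 2 and 8.80 on Splotch null 3, with 9.15 to 9.26 on the other 4 arrays. The endothelium list was lowest on Splotch null 3, at 8.78, and at 9.20 on Splotch null 2, with 8.94 to 9.40 in wild type. These lists moved with the low values of the members on Splotch null 2 or the high ones on Splotch null 3, and their part in them was not tested. Wild type 1, on which Sox1, Hes3 and Fabp7 were lowest, had a visceral endoderm level of 7.76, below the other 2 wild-type arrays. On that array the primitive blood list was highest, at 11.58, against 10.07 and 10.13 in the other wild-type arrays and 10.73 to 11.01 in Splotch null. The blood list's part in the low values was not tested.

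**Figure D5:**
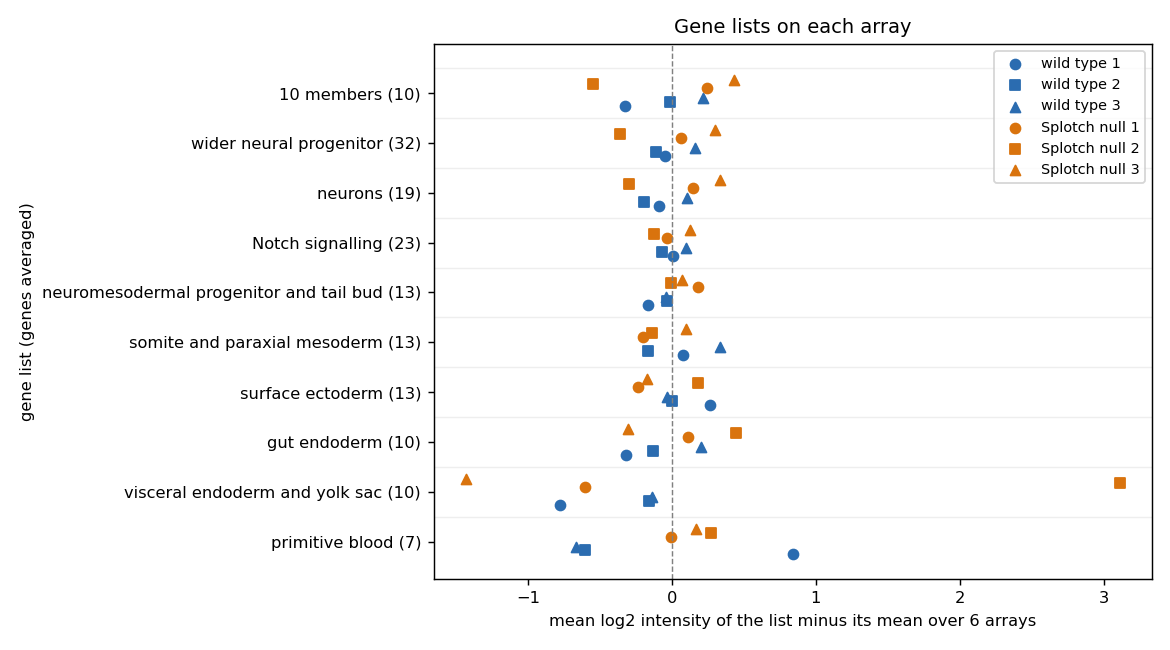
For each gene list (y axis, with the number of genes averaged), points give the mean log2 intensity on each array minus the mean of the 6 arrays (x axis), in blue for wild type and orange for Splotch null. The 10 members, the wider progenitor list and the neuronal list are lowest on Splotch null 2 and highest on Splotch null 3. The Notch signalling list has the same extremes over a narrower range, and the visceral endoderm and yolk sac list is the reverse.

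The surface ectoderm list was between 9.85 and 10.27 in Splotch null and between 10.05 and 10.35 in wild type, highest on wild type 1 and Splotch null 2, the 2 arrays on which the members were lowest as a set. The epithelial adhesion gene Epcam had 12.36 on wild type 1 and 12.33 on Splotch null 2, against 11.82 to 12.21 on the other 4. Its part was not tested. Genes of the tail bud and of axial progenitors, some of which express Sox2, had a mean level of 9.46 on Splotch null 2. Their mean was 9.54 on Splotch null 3, where the members' levels on these arrays were 8.57 and 9.55. Single genes of this list went both ways. Cdx1 had 10.77 on Splotch null 2 and 9.77 on Splotch null 3, and Nkx1-2 had 7.58 and 8.32 (both named after their values were seen). T, left out of the mean because wild type 2 had no usable spot, had 11.85 and 12.73. The somite list was at 8.91 and 9.15 on these arrays. The wider progenitor list was at 9.15 on Splotch null 2 and 9.81 on Splotch null 3, and the neuronal list at 7.34 and 7.96. Pax6, a paired-box gene of intermediate and ventral progenitors, had 8.68 on Splotch null 2 and 11.56 on Splotch null 3, with 10.45, 10.25 and 10.80 in wild type. Its difference between genotypes was -0.38 (SE 0.64). The neuronal tubulin gene Tubb3 had 7.03 and 7.13 on the same 2 arrays.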

How the data were processed

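Per the labels' protocols, biotin-labelled RNA amplified from the posterior embryo was hybridised. CodeLink Expression Analysis 5.0.0.31312 made the reports, per the file headers. The deposited raw intensity had values below 0 on all arrays, so a background had been subtracted before deposit. How was not given in the sources used here. The authors' normalized intensity was the raw intensity over the array median. The authors' deposited value table held linear intensity equal to the normalized one times 1 constant per array (0.996 to 1.0035, within 1% for 100% of positive usable spots), not centred by gene. Its columns had medians from 0.985 to 0.996 over the discovery probes.

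Groups came from the genotype field, and replicates were numbered in accession order, which pairs nothing. Spots flagged good (G), near background (L) or saturated (S) were used, and 277 to 422 discovery probes per array were left out. Values were floored at the smallest positive intensity, 0.0119, given an offset of 50, log2-transformed and then quantile-normalized. The 24434 probes with flag G or S on at least 3 arrays entered lmFit and eBayes (limma 3.58.1, R 4.3.3), with p-values adjusted by Benjamini-Hochberg over these probes. A gene was its probe with the highest mean. Names came from the platform annotation, updated by gene identifier to the RefSeq GRCm38.p6 symbols (21487 probes), kept from the platform (128) or taken from the report's accession (536). Probes with several symbols (681) or none (12135) stayed unnamed. Exact permutation tests used all splits or pairings of the 6 arrays. No batch was recorded in the headers.

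The 10 members and all lists were chosen with earlier results of these data known. Named genes are the members, up to 4 genes of smallest p from each of 2 wider lists, the 10 most and 5 least similar genes, Pax3 and 8 defining markers, of which those bearing on a result are printed. Genes outside this rule are marked as chosen after their values were seen. The procedure was tested on simulated data. Alternatives were offsets of 10 and 200, other scalings, the authors' normalized intensity and value table, other filters, eBayes settings, array weights, averaging the probes of each gene, array median as covariate, and arrays left out. Figures were drawn with matplotlib 3.10.9.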

Additional observations from a re-analysis of the deposited data

How the results depend on the processing

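With 6 arrays, 0 genes passed the limma threshold under any of the 20 alternatives, at unadjusted p under 0.05 for 204 genes under the chosen processing. That count was 2799 with array weights, whose estimation stopped before reaching its tolerance, 676 with array median as covariate, 335 with no filter, 419 without the 2 brightest arrays and 112 to 547 with each array left out. The median member difference lay between -0.076 and 0.34 with each array left out and moved by less than the spread between replicates in every alternative, as did the medians of the wider progenitor list (-0.11 to 0.12 with each array left out) and of the Notch list (-0.086 to 0.026). No member passed in any setting. Without the 2 brightest arrays the sign turned for Sox1 (-0.11), Sox3 (-0.33), Sox21 (-0.65), Hes3 (-0.019), Nes (-0.0096), Fabp7 (-0.028), Rfx4 (-0.13) and Prom1 (-0.14). It turned for Hes5 at an offset of 200 (0.011), with the value table (0.00071) and with array weights (0.30), and for Prom1 with array weights (-0.081); the causes were not tested. With each array left out the ranges were -0.0097 to 0.22 for Sox1, -0.68 to 0.32 for Sox2, -0.037 to 0.82 for Sox3, -0.45 to 0.69 for Sox21, -0.23 to 0.36 for Hes5, -0.17 to 0.42 for Hes3, -0.15 to 0.43 for Fabp7, -0.11 to 0.36 for Rfx4 and -0.29 to 0.32 for Prom1, and Nes stayed between 0.018 and 0.12. The median pairwise correlation was 0.632 with median scaling, 0.603 with cyclic loess and 0.638 with the value table, and 0.617 to 0.711 with each array left out. No paired analysis was possible because the labels give no replicate numbers shared between genotypes. Rfx4 was dropped by the filter on all 6 arrays. Signal over background limits Rfx4 and Sox1, whose differences are understated most.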

Other observations

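Within the wider progenitor list, the Notch list and the neuronal list, several other genes had a wide gap between Splotch null 2 and Splotch null 3. Those named here were chosen after their values were seen. Dbx1, a homeobox gene of progenitors of interneurons, had log2 intensities of 9.02, 8.73 and 9.50 in wild type and of 9.45, 7.03 and 11.12 in Splotch null, and its genotype difference was 0.12 (SE 0.91). The POU factor genes Pou3f2 and Pou3f3 had 7.54 and 9.42 on Splotch null 2 and 9.96 and 11.44 on Splotch null 3. The proneural gene Neurog2 had 7.42 and 9.59 on these arrays, and the Notch ligand gene Dll1 had 7.27 and 8.67. Sox11, a SoxC gene of both progenitors and young neurons, lay between 13.07 and 13.27 on all 6 arrays, and the Hes-related gene Hes6 between 10.01 and 10.43.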
